A study of Rattus norvegicus with 3 samples.

Results

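The healed extraction site was compared with the connective tissue of a natural tooth in the rat upper jaw, over all measured genes, to describe what tissue repair without an implant leaves behind after tooth loss. 2 of the study's 3 arrays enter the comparison, 1 array for each tissue, and 14217 genes were measured on both. The healed tissue, called OMCT (oral mucosa connective tissue) in the labels, came from the wounded area where an upper first molar had been extracted at 5 weeks of age, 4 weeks before harvest, with no implant set. The natural tissue, called PCT (periodontal connective tissue), came from the upper first molar of animals aged 9 weeks that had kept the tooth. The third array, PICT (peri-implant connective tissue), came from a socket that received a titanium alloy implant at extraction and was harvested after the same 4 weeks; its values stand beside the others as levels. All animals were male, wild type Sprague-Dawley rats aged 9 weeks at harvest, per the sample labels, which were followed here although the design text names mice for PCT in 1 place. A laser cut the wanted area of tissue out of sections on a slide (laser microdissection). The numbers of animals pooled or sampled per array were not given in the sources used here.

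When a tooth is pulled, the socket fills with clot and then with granulation tissue, in which macrophages clear debris, fibroblasts lay down and remodel collagen, and vessels grow in, while the oral epithelium closes over the surface. Around a standing tooth the connective tissue carries instead the fibre bundles that hold gum and tooth together, and it borders the junctional epithelium, the thin collar that seals the gum to the enamel. Metalloproteases cut the collagen and other matrix proteins that fibroblasts secrete, and bone morphogenetic proteins (BMPs), Wnt proteins and other growth factors direct the cells that rebuild the site.

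Values are intensities, the brightness of a probe set (a group of short probes against the 3′ end of a transcript) on a linear scale. A relative log2 difference is OMCT minus PCT after 8.56 was added to each intensity, log2 was taken and each array was centred on its median, so that 1 stands for 2-fold higher in OMCT and -1 for 2-fold lower. A gene is called higher or lower where this difference was at least 1 in size and the brighter array lay at or above its own median. The added value makes differences of dim genes too small before centring. Centring then shifts every difference, so a gene equally dim on both arrays gets a negative value. The fat cell marker Adipoq, at 5.92 in OMCT and 5.91 in PCT, had a relative difference of -0.62. Each tissue has 1 array and so no replicate spread, and no difference here carries a test or a p-value. A difference in tissue RNA can come from fewer cells of a type or from less RNA per cell, which cannot be told apart in these samples.

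By this rule 805 genes, 5.66% of those measured, were higher in the healed site and 684, or 4.81%, were lower, 10.5% in either direction. The median over all genes was -0.08. At 4-fold the counts were 189 higher and 190 lower, and at 16-fold they were 7 higher and 37 lower. On this relative scale the far end of the distribution thus held more genes that were lower at the healed site. The 16-fold counts also depend on the scaling: Fibin, for example, stood at 3.64 on the relative scale and at 4.27 as deposited, past 16-fold. Close to the rule, 98 genes lay within 0.1 above the upper limit and 148 within 0.1 below it, while 112 lay within 0.1 past the lower limit and 118 just short of it. The split depended on the scaling: the median intensity was 57.4 in OMCT and 34.3 in PCT, and without centring 2501 genes were higher and 298 lower. As deposited, without centring, each difference is 0.62 greater than the relative one, so lower calls within 0.62 of the limit are lost and further genes become higher calls. Centred on the array maker's hybridisation controls, 1409 were higher and 441 lower. The PCT array also had the highest 3′ to 5′ signal ratio for the control gene Hk1, at 2.80 against 1.97 in OMCT and 1.58 in PICT; a higher ratio means less signal from the far end of the transcript, and its part in the differences was not tested. Genes with several probe sets gave a technical check: of 498 called genes with more than 1, all sets had the same direction in 413 (82.9%). Sets of the same direction could still differ in size, as in Cdh1 (-1.83 to -0.32), Fzd5 (-1.60 to -0.04) and Mmp2 (0.13 to 1.37). For called genes, a range of probe sets is printed below only where the signs disagreed. For genes that were not called, a missing range does not mean agreement. The sets of Kdr ran from -0.44 to 0.21 and those of Col1a1 from -0.32 to 0.28.

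**Figure D1:**
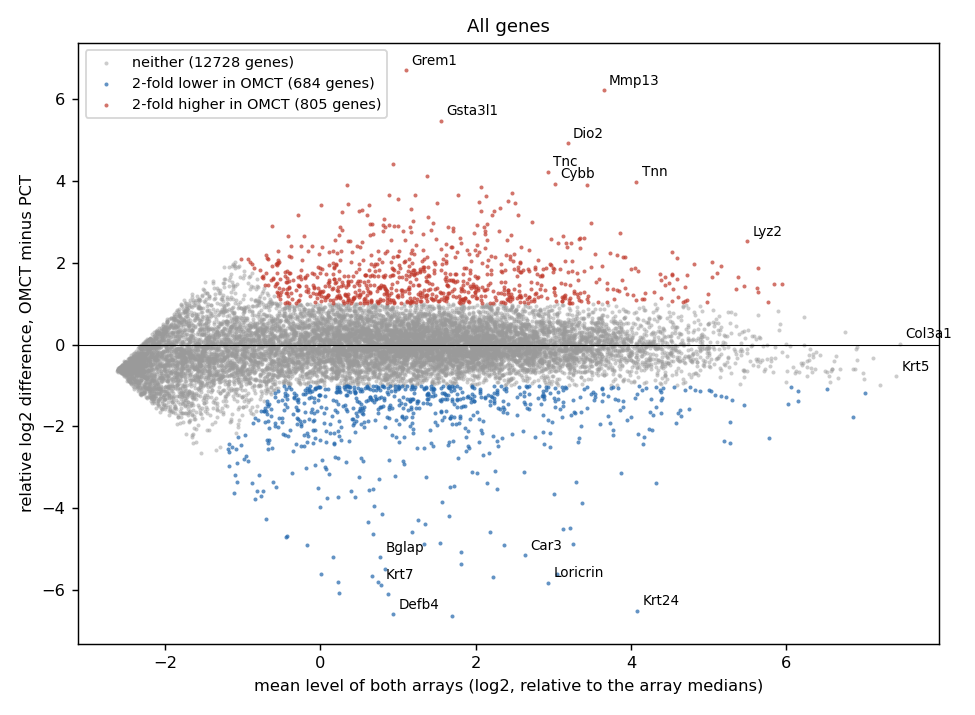
Each point is 1 of 14217 genes, with the mean log2 level of both arrays relative to the array medians on the x axis and the relative log2 difference, OMCT minus PCT, on the y axis. The 805 genes 2-fold higher in OMCT are red and the 684 lower genes are blue; Grem1 stands at 6.70 and Krt24 at -6.50.

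The tissue label was checked against marker genes first. Both arrays carried strong fibroblast signal: Col3a1, a main fibrillar collagen of soft tissue, had intensities of 11728 in OMCT and 7496 in PCT (relative difference 0.02). Both also carried strong signal of oral epithelium, which is not connective tissue. Krt5, the keratin of basal epithelial cells, had an intensity of 8595 in OMCT against 9565 in PCT, a relative difference of -0.78, and Krt14, its partner, had an OMCT intensity of 6894 against 8911 in PCT, a relative difference of -0.99. In the fibroblast list 11 of 18 genes were higher and none lower, with a median of 1.29, and Thy1, S100a4 and Dpt, a surface protein, a calcium-binding protein and a matrix protein, differed by 2.60, 2.36 and 1.83. Summed over 14 markers of basal keratinocytes, intensity was 32828 in OMCT and 42361 in PCT, and over 23 markers of differentiated oral epithelium it was 7344 in OMCT and 41941 in PCT. The PCT array thus carried far more signal of upper epithelial layers, and the part of this in the differences described next was not tested.

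The healed site had high signal of matrix-cutting enzymes. Of 28 measured metalloproteases and their tissue inhibitors (TIMPs), 17 were higher in OMCT and 1 was lower, with a median of 1.22, beside 5.66% higher, 4.81% lower and a median of -0.08 over all genes. Mmp13, interstitial collagenase of the rat, had intensities of 7086 in OMCT, 53.9 in PCT and 2793 in PICT (relative difference 6.21). Mmp3 (stromelysin), which cuts proteoglycans and activates collagenases, had an intensity of 314 in OMCT, 5.57 in PCT and 214 in PICT, which gave a relative difference of 3.89; the PCT value lies at or below the brightest negative control, so its difference is at least 3.88. Mmp10, a close relative of Mmp3, had intensities of 279 in OMCT, 11.1 in PCT and 52.5 in PICT (relative difference 3.25). Both stromelysins were thus bright at the healed site and near background by the tooth. Mmp12, the elastase of macrophages, had intensities of 1157 in OMCT and 208 in PCT (relative difference 1.80). These 4 genes lie in a cluster on chromosome 8 of the rat, and each has in its promoter the letters TGANTCA, the core that AP-1 transcription factors can bind. The bases just before their start sites are printed here for these 4, picked because they were called in the same direction. Not every gene of the cluster is shown. The match is in capitals, from RefSeq (GRCr8), plus strand, 5′ to 3′.
Mmp13, chr8:12782719-12782828: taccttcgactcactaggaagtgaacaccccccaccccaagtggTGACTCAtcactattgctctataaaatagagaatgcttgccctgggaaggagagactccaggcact
Mmp3, chr8:12925171-12925280: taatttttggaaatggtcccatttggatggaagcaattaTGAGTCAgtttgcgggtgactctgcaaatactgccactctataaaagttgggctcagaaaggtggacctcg
Mmp10, chr8:12974597-12974706: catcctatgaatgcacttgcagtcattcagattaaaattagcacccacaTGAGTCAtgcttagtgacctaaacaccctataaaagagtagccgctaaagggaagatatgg
Mmp12, chr8:12866542-12866651: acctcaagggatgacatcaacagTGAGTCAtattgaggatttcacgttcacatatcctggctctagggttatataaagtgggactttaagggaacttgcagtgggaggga
The first base of the match lies 66 bases before the start in Mmp13, 71 in Mmp3, 61 in Mmp10 and 87 in Mmp12. Searched on both strands of the 250 bases before each start, the motif occurred in 6 of the 20 metalloprotease promoters at hand (30.0%) and in 6.36% of 27457 rat promoters. Of these 6, 4 are the cluster members printed above. Mmp7 and Adam19 also hold it and were not called, at 0.63 and 0.86. Mmp8, dim on both arrays and without the motif, was not called either, at -0.77. A TATA box (TATAAA), searched in the same way, occurred in 8 of the 20 (40.0%) and in 13.1% of all. It also occurred in 6 of 18 promoters of cornified envelope genes (33.3%) and in 1 of 14 of phagocyte signalling genes (7.14%), lists described below. The motif and genes were chosen with the values known, and a match describes letters, not binding.

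Other secreted proteases were higher too. Adamts12, a protease of cartilage and tendon matrix, had an intensity of 572 in OMCT against 9.30 in PCT, a relative difference of 4.40. Mmp11, which is made by stroma next to remodelling tissue, stood apart from the implant site, with an intensity of 2740.2 in OMCT, 112 in PCT and 87.1 in PICT, which gave a relative difference of 3.89. The gelatinase Mmp2 was bright on both arrays, with intensities of 5209.6 in OMCT and 1299 in PCT (relative difference 1.37), and its membrane-bound activator Mmp14 had an intensity of 2359 in OMCT against 550.0 in PCT, a relative difference of 1.46. The inhibitors Timp1 and Timp2 were also higher, at 1.20 and 1.22, whereas Timp3, held in the matrix, was not called, with an OMCT intensity of 846 against 705 in PCT, a relative difference of -0.36. Adam8, a membrane protease of leukocytes, was the lower member at -1.02, but its probe sets disagreed in sign, from -1.02 to 0.34. In the plasminogen system, which dissolves fibrin, 4 of 15 genes were higher and 1 was lower, with a median of 0.07. Serpine2 (protease nexin), an inhibitor of thrombin and plasminogen activators, had intensities of 1289 in OMCT and 142 in PCT (relative difference 2.49). Plat, tissue plasminogen activator, differed by 1.52, while Plau, the urokinase form, was not called at 0.26. Plaur, the urokinase receptor, and Procr, the receptor for protein C, were higher by 1.61 and 1.17. Serpinb2, the plasminogen activator inhibitor of epithelium, was lower at -1.07.

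Among collagens, many minor chains were higher, while the chains of collagen I did not pass the rule. Of 22 measured collagens 15 were higher and 1 lower, with a median of 1.38. Col1a1 had an intensity of 8189 in OMCT against 6651 in PCT, a relative difference of -0.32, and Col1a2 had an OMCT intensity of 7899 against 4184 in PCT, a relative difference of 0.29, neither of which passed the rule. The chains of collagen VI, which form beaded filaments around cells, were all higher: Col6a1 by 1.43, Col6a2 by 1.95 and Col6a3 by 2.02. Col12a1, which coats fibrils in tissue under tension, had intensities of 6288 in OMCT and 1469 in PCT (relative difference 1.47). Col7a1, the anchoring fibril collagen that fastens epithelium to connective tissue, had an intensity of 1611 in OMCT, 167 in PCT and 314 in PICT, which gave a relative difference of 2.59. Col24a1, a minor fibrillar collagen of developing bone, had intensities of 441 in OMCT, 16.3 in PCT and 120.1 in PICT (relative difference 3.55). Col16a1, a minor chain, differed by 1.80. Col14a1, another fibril coat, was the lower member at -1.47, from dim values of 40.9 in OMCT and 80.7 in PCT.

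Genes that make collagen ready for fibrils followed with 9 of 20 higher and none lower, at a median of 0.95, and 15 higher as deposited. Loxl2, which crosslinks collagen through lysines, had intensities of 851 in OMCT and 49.5 in PCT (relative difference 3.27). Lox, the founding member of that enzyme family, had an intensity of 3295 in OMCT against 488 in PCT, a relative difference of 2.11. Fkbp10, a collagen chaperone of the endoplasmic reticulum, had an OMCT intensity of 645 against 88.3 in PCT, a relative difference of 2.13. Pcolce, which speeds the trimming of procollagen, and P3h4, part of a collagen hydroxylase complex, differed by 1.81 and 1.73. The difference was uneven within the list: P4ha1, a subunit of prolyl hydroxylase, reached 0.49 and Tgm2, a transglutaminase, -0.37, and neither was called. General chaperones and secretory proteins of the endoplasmic reticulum had 3 of 30 members higher and none lower, with a median of 0.23, but 11 higher as deposited. Pdia5, a disulphide isomerase, had the largest difference among them, 1.67, Sdf2l1 and Sec24d followed at 1.31 and 1.14, and Hspa5, the main chaperone of the compartment, differed by 0.11.

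Matricellular proteins, which sit in the matrix and steer cells without building fibres, had 10 of 21 members higher and 1 lower, with a median of 0.54. Tnc (tenascin-C), which appears in matrix under repair, led the list with intensities of 2159 in OMCT, 67.2 in PCT and 379 in PICT (relative difference 4.22). Tnn (tenascin-W), its relative, came next with an intensity of 4367 in OMCT, 173 in PCT and 978 in PICT, which gave a relative difference of 3.97. Thbs2, an inhibitor of vessel growth, had an OMCT intensity of 1223 against 92.3 in PCT, a relative difference of 2.99. Fn1, the fibronectin that cells crawl along during repair, had an intensity of 1442 in OMCT, 162 in PCT and 1784 in PICT, which gave a relative difference of 2.47. Ccn4, a Wnt target made by bone and scar fibroblasts, had an intensity of 424 in OMCT against 47.4 in PCT, a relative difference of 2.33. Fn1 was as bright in the implant tissue as at the healed site, while Thbs2 and Ccn4 were dimmer there. Ccn2, the family member best known in fibrosis, was not called, with an intensity of 765 in OMCT, 458 in PCT and 1612 in PICT, which gave a relative difference of 0.11. Thbs4, a thrombospondin of tendon and ligament, was the lower member, with intensities of 547 in OMCT, 849 in PCT and 165 in PICT (relative difference -1.25).

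Of 24 proteoglycan and hyaluronan genes 8 were higher and 3 lower, with a median of 0.43, but 12 were higher and none lower as deposited. Lum and Bgn, small leucine-rich proteoglycans that bind collagen fibrils, were both higher by 1.86. Vcan (versican) and Aspn (asporin) differed by 1.71 and 1.69. Cemip, which starts the breakdown of hyaluronan, had an intensity of 457 in OMCT, 22.1 in PCT and 69.5 in PICT, which gave a relative difference of 3.30. The 3 lower members were syndecans, cell surface proteoglycans: Sdc1 at -1.13, Sdc4 at -1.12 and Sdc3 at -1.01, calls that were lost without centring. Elastic fibre and microfibril genes had 3 of 18 higher and 1 lower, with a median of 0.44, but 10 higher and 1 lower as deposited. Eln itself, the elastin gene, had an OMCT intensity of 161 against 138 in PCT, a relative difference of -0.42, within the rule. Mfap4, a microfibril protein, was lower at -1.62, and Loxl1, a crosslinker of elastin, and the elastic fibre proteins Emilin1 and Emilin2 were higher at 1.51, 1.24 and 1.14.

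Integrins, the receptors that grip matrix and other cells, had 9 of 19 members higher and none lower, with a median of 0.78. Itga11, the collagen receptor of fibroblasts, had intensities of 570.2 in OMCT and 43.8 in PCT (relative difference 2.84). Itgb2, the shared chain of leukocyte integrins, had an intensity of 337 in OMCT against 21.6 in PCT, a relative difference of 2.90, and its partner Itgal had an OMCT intensity of 268 against 8.13 in PCT, a relative difference of 3.43. Itgam, another leukocyte chain, differed by 2.40. The called members thus included both matrix and leukocyte receptors. The epithelial pair Itga6 and Itgb4, which anchor basal cells, reached -0.93 and -0.95 and was not called. In the basement membrane list, 9 of 25 were higher and 1 lower, with a median of 0.07. Nid1 (nidogen), which links laminin to collagen IV, had intensities of 1349 in OMCT and 162 in PCT (relative difference 2.37), and the network chains Col4a1 and Col4a2 both differed by 1.64 and Lamc1, a laminin chain, by 1.698. Lamb3, a chain of the laminin under epithelium, was lower at -1.13, and its partner Lama3 reached -0.99. Lama4, a laminin of vessels, was higher at 1.88, but its probe sets ran from -0.47 to 1.88.

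**Figure D2:**
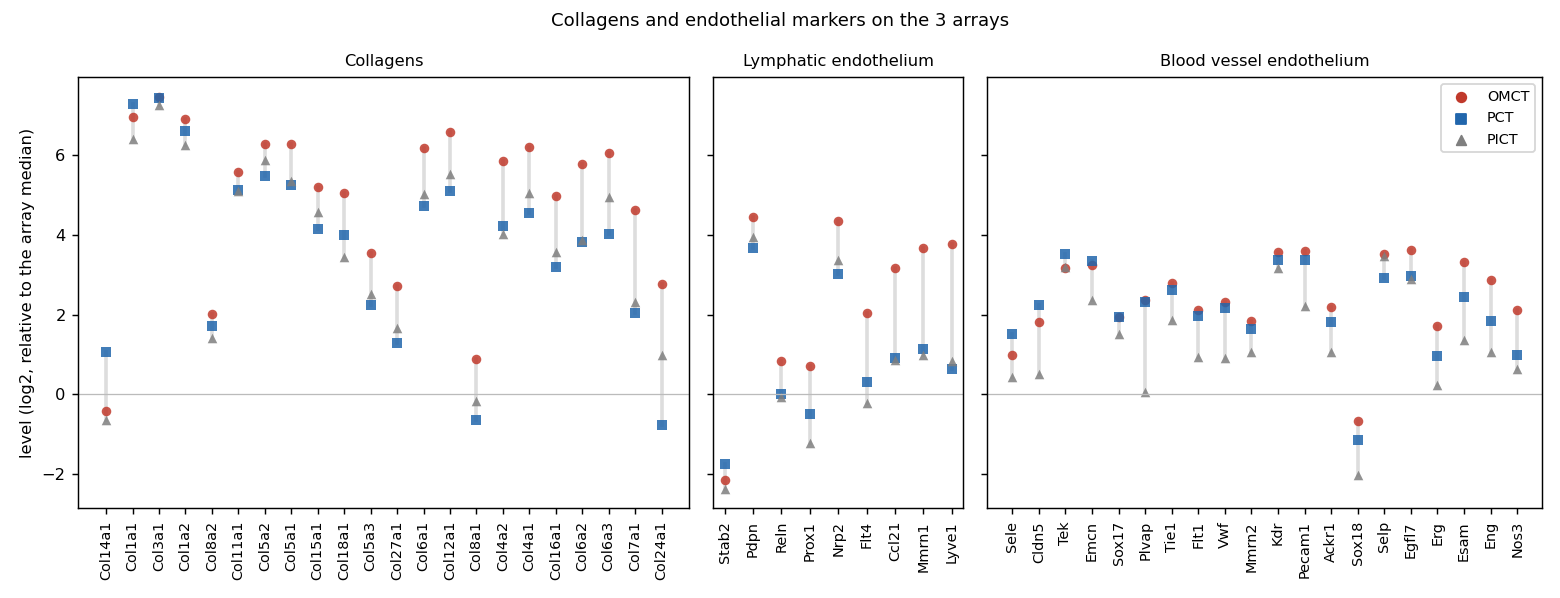
Log2 levels relative to each array's median are plotted for 22 collagens, 9 lymphatic endothelial markers and 20 blood vessel markers in OMCT (red circles), PCT (blue squares) and PICT (grey triangles), ordered within each panel by the difference OMCT minus PCT. Col3a1 sits at the same level in OMCT and PCT, where Col24a1 and Lyve1 lie 3.55 and 3.15 apart. Most blood vessel markers lie close together in OMCT and PCT. Their median level is 1.06 in PICT, against 2.34 in OMCT and 2.21 in PCT.

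Among genes of the BMP and TGF-beta pathway 6 of 37 were higher and 4 lower, with a median of -0.25, a split that depended on the scaling, with 12 higher and 1 lower as deposited and 9 higher and 2 lower when centred on the hybridisation controls. Grem1 (gremlin), a secreted protein that binds BMPs and keeps them from their receptors, had an intensity of 1435 in OMCT, 0.456 in PCT and 108 in PICT, which gave a relative difference of 6.70. The PCT value is below the brightest negative control, so the difference is at least 6.04, a bound below the value of Mmp13. Bmp4, a ligand that Grem1 binds, had intensities of 740.0 in OMCT, 62.5 in PCT and 37.6 in PICT (relative difference 2.77), while the ligands Bmp2 and Bmp7 were not called, at -0.68 and -0.25. Inhba, which encodes the activin A subunit, had an intensity of 779 in OMCT, 119 in PCT and 1209 in PICT, which gave a relative difference of 2.004. Bambi, a decoy receptor that dampens these signals, had intensities of 33.6 in OMCT, 244 in PCT and 123 in PICT (relative difference -3.20). Tgfbr1, a TGF-beta receptor, was higher at 1.85, and the ligand Bmp3 and the receptor Bmpr1a were lower at -1.30 and -1.04. Id1, a target gene of BMP signalling, had an OMCT intensity of 387 against 645 in PCT, a relative difference of -1.35, and the related Id2, Id3 and Id4 lay between -0.90 and -0.70 without passing the rule. The other BMP antagonists stayed within the rule: Nog (noggin) was dim, at 8.91 and 5.73, Chrd (chordin) differed by 0.36 and Fst (follistatin) by 0.69.

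In the Wnt pathway 5 of 34 genes were higher and 3 lower, with a median of 0.07, but 8 higher and none lower as deposited. Wif1, a secreted inhibitor that binds Wnt proteins, had intensities of 925 in OMCT, 138 in PCT and 70.3 in PICT (relative difference 2.05). Rspo1, which strengthens Wnt signals through Lgr receptors, had an intensity of 131 in OMCT, 15.2 in PCT and 16.6 in PICT, which gave a relative difference of 1.93. Its receptor gene Lgr5 differed by 1.55 and Wnt5a, a ligand of mesenchyme, by 1.25. Wif1 and Rspo1 were each several times brighter at the healed site than on either other array. Dkk3 reached 2.47, but its 4 probe sets ran from -0.55 to 2.47. The lower members were Fzd5, a receptor, at -1.60, Wnt4 at -1.22 and the inhibitor Sfrp1 at -1.22. Axin2, a general target of the pathway, was not called, with an OMCT intensity of 206 against 107 in PCT, a relative difference of 0.27.

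Of 42 growth factors and receptors 5 were higher and 10 lower, with a median of -0.46. Pdgfra, the receptor for platelet-derived growth factor on fibroblasts, had intensities of 1888 in OMCT and 252 in PCT (relative difference 2.24). Fgfr1, the fibroblast growth factor receptor of mesenchyme, differed by 1.096, Pdgfrb by 1.30 and the ligand Vegfb by 1.66. The ligand Fgf9 was higher at 1.66, with probe sets from -0.06 to 1.66. The epithelial receptors were lower: Fgfr3 had an intensity of 258 in OMCT against 559 in PCT, a relative difference of -1.71, Fgfr2 differed by -1.37 and Egfr by -1.29, and its ligand Hbegf was lower at -1.46. Vegfa, the main signal for vessel growth, was lower, with an OMCT intensity of 122 against 224 in PCT, a relative difference of -1.45. This list depended on the scaling, with 9 higher and 1 lower in the deposited values and 6 each when centred on the hybridisation controls. Notch and Hedgehog genes had 1 of 19 higher, Dll1 at 1.12, and 1 lower, Notch3, a receptor of vessel wall cells, at -1.19.

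Transcription factors of mesenchyme had 7 of 26 members higher and 3 lower, with a median of 0.58, and 12 higher and 2 lower as deposited. Prrx1 and Twist1, which mark fibroblasts of the head and limb, were higher by 1.45 and 1.64. Foxf1, a factor of mesenchyme next to epithelium, had intensities of 146 in OMCT and 27.9 in PCT (relative difference 1.46). Pax9, needed for teeth to form, differed by 1.13. Prrx2 reached 2.14, with probe sets from -1.32 to 2.14. Dlx3 and Msx2, homeobox factors also used by epithelium and hair, were lower, at -2.48 and -2.37, as was Meox2 at -1.22.

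Genes of phagocytes formed the other large group that was higher at the healed site. Of 22 Fc receptor and phagocyte signalling genes, 19 were higher and none lower, with a median of 1.75. Ptprc (CD45), the phosphatase on white blood cells in general, had an intensity of 290.2 in OMCT, 11.3 in PCT and 279.6 in PICT, which gave a relative difference of 3.29. Clec4a3, a C-type lectin of myeloid cells, had intensities of 1299.5 in OMCT, 57.3 in PCT and 836 in PICT (relative difference 3.69). Fcgr1a, the high-affinity receptor for antibody, had an intensity of 723 in OMCT, 64.5 in PCT and 869.5 in PICT, which gave a relative difference of 2.70. These values were near those of the implant tissue for Ptprc and Fcgr1a. Syk, a kinase shared by many cell types, was not called, with an intensity of 104 in OMCT against 67.3 in PCT, a relative difference of -0.05, and neither was the Fc receptor Fcgr3a, with an OMCT intensity of 43.2 against 25.3 in PCT, a relative difference of -0.01. Tyrobp, a signalling adaptor, and its partner receptor Trem2 differed by 3.62 and 2.90. Of 23 macrophage markers 20 were higher and none lower, with a median of 2.35. Mrc1, the mannose receptor (CD206), led them with intensities of 699 in OMCT, 18.1 in PCT and 464 in PICT (relative difference 4.11), and Ms4a7 and the folate receptor Folr2 differed by 3.64 and 3.42. Across the 23 markers summed intensity was 20368 in OMCT and 2176 in PCT, and the scavenger receptor Cd163 was dim on both arrays, at 21.1 and 12.7.

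The oxidase that phagocytes use to make superoxide was higher in most of its subunits, whereas general antioxidants were not. Cybb, its catalytic chain, had an intensity of 2077 in OMCT, 80.4 in PCT and 1948 in PICT, which gave a relative difference of 3.93. Its membrane partner Cyba had an OMCT intensity of 574 against 123 in PCT, a relative difference of 1.52, and the cytosolic subunit Ncf1 had intensities of 139 in OMCT and 15.5 in PCT (relative difference 1.997). Ncf4 differed by 1.80 and Rac2, the small GTPase of the complex, by 1.34. With Gpx7 and Gpx8, peroxidases of the endoplasmic reticulum that differed by 2.09 and 2.19, these made up the 7 of 27 oxidase and antioxidant genes that were higher; none was lower and the median was 0.28, and 12 were higher as deposited. Sod1 and Cat, which remove superoxide and peroxide in most cells, differed by -0.63 and 0.27.

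Complement, the protein cascade that tags debris and microbes, had 10 of 20 members higher and 1 lower, with a median of 0.90. The recognition chains C1qa, C1qb and C1qc were higher, and C1qa had intensities of 758 in OMCT, 59.8 in PCT and 186 in PICT (relative difference 2.86). Masp1, a protease of the lectin route, had an OMCT intensity of 1437 against 141 in PCT, a relative difference of 2.66. The receptors for the released fragments were higher, with C3ar1 at intensities of 289.7 in OMCT and 13.1 in PCT (relative difference 3.16) and C5ar1 at an intensity of 440.1 in OMCT against 40.6 in PCT, a relative difference of 2.57. C3, the central component from which one of those fragments is cut, was the lower member, with intensities of 29.0 in OMCT, 116 in PCT and 53.1 in PICT (relative difference -2.35). Colec12, a scavenger lectin, had intensities of 609 in OMCT and 28.1 in PCT (relative difference 3.45).

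Lysosomal genes had 11 of 26 members higher and none lower, with a median of 0.79, and 18 higher as deposited. Lyz2, the lysozyme of phagocytes, differed by 2.52. Ctsk, the collagen-cutting cathepsin of osteoclasts and fibroblasts, had an intensity of 3314 in OMCT against 440.3 in PCT, a relative difference of 2.27, and Ctsz, a cathepsin of myeloid cells, had an OMCT intensity of 905 against 156 in PCT, a relative difference of 1.85. Housekeeping members stayed within the rule, with Lamp1, a main membrane protein, at -0.74 and the proton pump subunit Atp6v0d1 at -0.00. Lgmn (legumain) reached 1.97, with probe sets from -0.36 to 1.97. In the osteoclast list 6 of 11 were higher and 1 lower, with a median of 1.02. Tcirg1, a proton pump subunit of those cells, differed by 1.34 and Acp5, their tartrate-resistant phosphatase, by 1.02, just past the rule. Itgb3, an integrin chain, and Tnfrsf11a, the receptor that starts osteoclast formation, differed by 1.82 and 1.36. Car2, the carbonic anhydrase that supplies their acid, was lower at -1.92, and Calcr, the calcitonin receptor, was dim on both arrays, at 11.02 and 5.25.

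Antigen presentation genes had 5 of 20 higher and none lower, with a median of 0.46, and 10 higher as deposited. RT1-DMb and RT1-DMa, the rat chains of the molecule that loads peptides onto class II, were higher by 2.37 and 1.85. RT1-N3 and the proteasome subunit Psmb8 differed by 1.30 and 1.12, and Ciita, the switch of class II genes, by 1.09, with probe sets from -0.01 to 1.09. Cd74, the class II chaperone, had intensities of 1586 in OMCT and 569 in PCT (relative difference 0.84) and did not pass the rule. B2m, the shared light chain of class I, differed by -0.07. Other leukocytes left weaker or mixed signals. Cd4, which marks helper T cells and in the rat also macrophages, had an intensity of 498 in OMCT against 29.2 in PCT, a relative difference of 3.12 and was the 1 higher gene of 19 T and NK cell markers, while Cd247, a signalling chain of the T cell receptor, was the lower gene at -1.86 and Cd3e, another chain of that receptor, was dim, at 17.8 and 7.41. Other members passed 2-fold but were too dim for a call. Cd8b stood at 2.01, Cd28 at 1.21, Cd3g at 1.19 and Gzmb at -1.24. Cd8a stood at 1.53, with probe sets from -0.68 to 1.53. The median of the 19 was 0.10. Of 12 mast cell markers and 8 B and plasma cell markers none was called, with medians of -0.57 and 0.05, and most were dim. As deposited these medians were 0.06 and 0.67. The mast cell markers ran from -2.51 to 0.22. Cpa3 and Cma1 among them differed by -2.51 and -2.05, but their PCT intensities of 33.3 and 19.5 lay below the level limit. Of 11 neutrophil markers 2 were higher and 2 lower: S100a9 differed by 1.52 and its binding partner S100a8 by -1.81, and the gelatinase Mmp9 by 1.21.

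Of 34 chemokines and receptors, 8 were higher and 4 lower, with a median of -0.04. Cxcl13, which draws B cells, had intensities of 2045 in OMCT, 164 in PCT and 528 in PICT (relative difference 2.95). Ccl2, the main attractant of monocytes, had an intensity of 391 in OMCT, 26.7 in PCT and 298 in PICT, which gave a relative difference of 2.88, and its receptor Ccr2 had intensities of 292 in OMCT, 37.3 in PCT and 106 in PICT (relative difference 2.09). Ligand and receptor of that pair were called in the same direction. Cx3cr1, the receptor for fractalkine on resident macrophages, differed by 2.22, whereas the ligand Cx3cl1 was lower at -1.39. The other lower members were Ccl6 at -2.26, Cxcr2 at -1.02, and Cxcl14, a chemokine of epithelium, at -1.95 with probe sets from -1.95 to 0.23. Interleukins and their receptors had 1 of 39 higher, Il18 at 1.78, and 3 lower, but 9 higher and 3 lower as deposited. The lower genes were Il36b, Il36rn and Il1rn, members of the interleukin-1 family that epithelium makes. Il36rn, an antagonist, had an OMCT intensity of 110.01 against 475 in PCT, a relative difference of -2.65, and Il1rn, the interleukin-1 receptor antagonist, had intensities of 803 in OMCT and 1991 in PCT (relative difference -1.92). Il1b itself was not called, with an intensity of 408 in OMCT, 188 in PCT and 1216 in PICT, which gave a relative difference of 0.46, and Il6 and Tnf were dim, at 10.4 and 25.6 in OMCT.

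PU.1, a transcription factor of myeloid cells, can bind the letters GAGGAAGT. Searched on both strands of the 250 bases before the start, they occurred in 3 of the 14 phagocyte signalling promoters at hand (21.4%), in 2 of 17 macrophage marker promoters (11.8%) and in 2.04% of all promoters. The promoters of Cd53, a membrane protein of white blood cells, and Ctss, the cathepsin of antigen-presenting cells, are shown as called members that hold a match; in both it reads on the opposite strand, ACTTCCTC, in capitals (RefSeq, GRCr8, 5′ to 3′ along the gene).
Cd53, chr2:197087897-197088046, minus strand: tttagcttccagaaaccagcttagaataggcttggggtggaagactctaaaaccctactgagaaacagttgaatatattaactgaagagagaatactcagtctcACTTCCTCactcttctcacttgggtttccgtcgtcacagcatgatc
Ctss, chr2:185775246-185775395, plus strand: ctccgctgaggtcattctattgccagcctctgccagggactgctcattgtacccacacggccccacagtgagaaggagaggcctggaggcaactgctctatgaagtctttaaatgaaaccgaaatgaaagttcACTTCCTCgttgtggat
The match begins 46 bases before the start of Cd53 and 17 before that of Ctss. Cd53 had an OMCT intensity of 1253 against 129 in PCT, a relative difference of 2.58 and Ctss had intensities of 1175 in OMCT and 59.1 in PCT (relative difference 3.51). The third gene that holds these letters in the phagocyte list besides Cd53 and Vav1 is Fcgr3a, which was not called.

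A few marker lists had at most 2 called members in either direction. Dendritic and Langerhans cell markers had 2 of 11 higher, Itgax at 2.15 and Cd83 at 1.98, and 1 lower, the epithelial adhesion gene Epcam at -1.75. Of 12 fat cell markers Fabp4, a fatty acid carrier that macrophages also make, and Lpl were higher. Salivary gland had 1 of 11 higher, the potassium channel Kcnn4 at 2.24, and melanocytes 1 of 7, Mitf at 2.23, a factor that myeloid cells share; the defining gland and pigment genes Amy1 and Tyr were dim, at 2.87 and 2.49 in OMCT. Of 9 cartilage markers Col11a2 was lower at -3.35, while Col2a1 was dim on both arrays, and of 20 skeletal muscle markers Myh1 was lower at -1.35.

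Lymphatic and blood vessel markers were called at different rates. Of 9 lymphatic endothelial markers, 6 were higher and none lower, with a median of 1.35. Lyve1, a hyaluronan receptor of lymphatic vessels and some macrophages, had intensities of 901 in OMCT, 57.9 in PCT and 107 in PICT (relative difference 3.15). Mmrn1, a protein of lymphatic endothelium and platelets, had an intensity of 832 in OMCT, 85.2 in PCT and 120.3 in PICT, which gave a relative difference of 2.54. Ccl21, which guides dendritic cells into lymphatics, had intensities of 586 in OMCT, 72.7 in PCT and 110.4 in PICT (relative difference 2.25). Flt4, the receptor for the lymphatic growth factor Vegfc, had an intensity of 262 in OMCT, 44.4 in PCT and 47.7 in PICT, which gave a relative difference of 1.73. These 4 markers were low by the tooth and at the implant, and bright at the healed site. Prox1, the factor that sets lymphatic identity, was higher at 1.21, but its 2 probe sets ran from -0.12 to 1.21, and with the median of all probe sets 4 of the 9 were higher. Podoplanin (Pdpn), shared with epithelium, reached 0.80, and Stab2 was dim at 6.30 and 4.18. The macrophage markers named above were also higher, and their part in the Lyve1 value was not tested.

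Of 20 blood vessel markers 2 were higher and none lower, with a median of 0.20. Their median level relative to the array median was 2.34 in OMCT, 2.21 in PCT and 1.06 in PICT. Pecam1, an adhesion molecule of endothelium, had an OMCT intensity of 795 against 437 in PCT, a relative difference of 0.23, Kdr, the main receptor for Vegfa, had intensities of 774 in OMCT and 432 in PCT (relative difference 0.21), and Vwf, the clotting factor carrier, had an intensity of 322 in OMCT against 183 in PCT, a relative difference of 0.17; none of the 3 passed the rule. The higher genes were Nos3, which makes nitric oxide, at 1.12 and Eng (endoglin) at 1.03. In the deposited values 7 of 20 were higher, against 8 of 9 lymphatic markers. Smooth muscle and pericyte markers had 2 of 16 higher and 2 lower, but 5 higher and none lower as deposited. Myl9, a myosin light chain, differed by 1.37 and Abcc9, a channel subunit of pericytes, by 1.06, while Myh11, the smooth muscle myosin, was lower at -1.30 and Acta2 was within the rule at 0.18.

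**Figure D3:**
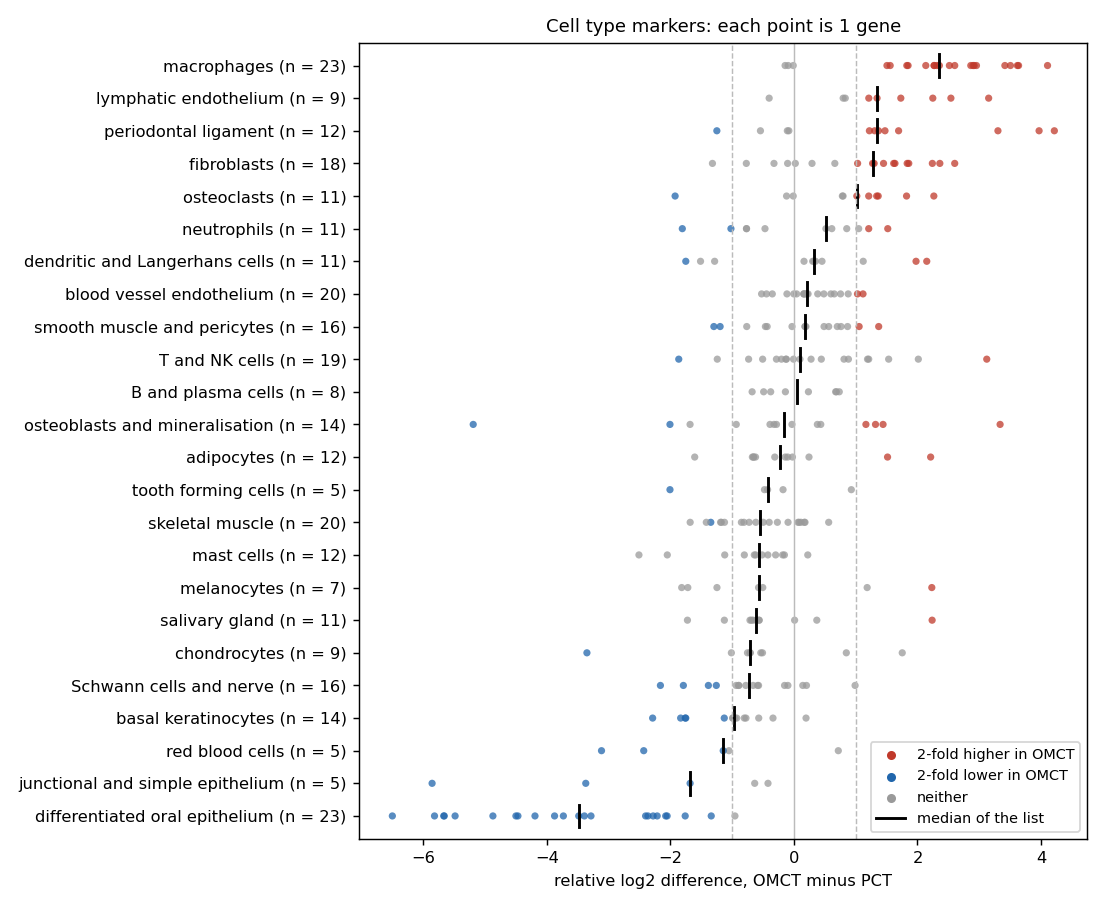
Each point is 1 marker gene, placed by its relative log2 difference, OMCT minus PCT, in 24 cell type lists ordered by their medians (black bars); red points were 2-fold higher in OMCT, blue points 2-fold lower and grey points neither. Macrophage markers have a median of 2.35 and differentiated oral epithelium -3.48, while blood vessel, smooth muscle and T cell lists lie near 0.

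Genes of the upper layers of oral epithelium had low relative signal at the healed site, with a median of -3.48 over the 23 markers of differentiated epithelium, of which 22 were lower and none higher. In the basal keratinocyte list 5 of 14 genes were lower and none higher, with a median of -0.97. Tp63, the factor that sustains basal cells, had an OMCT intensity of 1141 against 1099 in PCT, a relative difference of -0.57, and Col17a1, which anchors them to the basement membrane, had intensities of 3269 in OMCT and 2684 in PCT (relative difference -0.34), both within the rule. The lower members included the cadherins Cdh3 and Cdh1 at -2.29 and -1.83 and Krt17 at -1.76. Of 21 keratins 11 were lower and none higher, with a median of -1.76. Krt13, a keratin of the layers above the base in lining mucosa, had an intensity of 1058 in OMCT, 3556 in PCT and 3049.8 in PICT, which gave a relative difference of -2.36. Krt10, its counterpart in keratinising epithelium, had intensities of 1105 in OMCT, 3811 in PCT and 4503 in PICT (relative difference -2.40). Krt78, a late keratin, had an intensity of 8.94 in OMCT, 501 in PCT and 839 in PICT, which gave a relative difference of -5.49. The implant tissue was near the tooth tissue for these 3 genes. Krt1, the partner of Krt10, differed by -4.50, and Krt24, a keratin of upper layers, had intensities of 108 in OMCT, 6864 in PCT and 6441 in PICT (relative difference -6.50).

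Junction proteins hold epithelial cells together. Of 14 desmosome genes 11 were lower and none higher, with a median of -1.53. Dsp (desmoplakin), present in all layers, had an OMCT intensity of 3143 against 4517 in PCT, a relative difference of -1.14. Dsg1, a cadherin of the upper layers, had intensities of 1635 in OMCT and 5172 in PCT (relative difference -2.28). Dsc1, another cadherin of those layers, and the plakin proteins Evpl and Ppl differed by -3.29, -2.26 and -2.09. Cdsn (corneodesmosin), secreted into junctions of the outermost cells, had an intensity of 27.1 in OMCT, 658 in PCT and 802 in PICT, which gave a relative difference of -4.85. Dsg2, a cadherin of simple and basal epithelium, was not called, with an OMCT intensity of 432 against 433 in PCT, a relative difference of -0.63. Of 17 tight junction and connexin genes 9 were lower and none higher, with a median of -1.13. Gjb6, a connexin of stratified epithelium, had an intensity of 22.1 in OMCT, 467 in PCT and 972 in PICT, which gave a relative difference of -4.58, and Cldn4, a claudin that tightens the seal, had an intensity of 86.5 in OMCT against 306 in PCT, a relative difference of -2.35. Cldn1, Gjb2 and Cgn (cingulin) differed by -1.76, -1.56 and -1.44. Gja1, a connexin, and Tjp1, a junction scaffold, which connective tissue also makes, differed by -0.67 and -0.46. The counts of lower members depended on the scaling, with 6 desmosome genes and 3 tight junction genes in the deposited values.

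Cornified envelope genes, which build the tough shell of surface cells, had 15 of 21 members lower and none higher, with a median of -3.73. Padi1, which modifies keratins in the upper layers, had an intensity of 0.982 in OMCT, 406 in PCT and 656 in PICT, which gave a relative difference of -6.06. Its OMCT value lies below the brightest negative control, which bounds the difference at -5.71. Cnfn (cornifelin), an envelope protein, had intensities of 6.08 in OMCT, 473 in PCT and 602 in PICT (relative difference -5.66). Spink5, an inhibitor of the proteases that loosen surface cells, had an intensity of 21.9 in OMCT against 576 in PCT, a relative difference of -4.88. Tgm1 and Tgm3, the transglutaminases that crosslink the envelope, differed by -4.19 and -3.88. Ivl (involucrin) was dim on both arrays, at 4.67 and 8.10. The AP-1 core TGANTCA occurred in 4 of the 18 envelope promoters at hand (22.2%), beside the 6.36% of all promoters. Sprr1a, a small proline-rich envelope protein, and Loricrin, the bulk envelope protein, are printed as members that were far lower in OMCT and yet hold the same letters as the metalloproteases (minus strand of chromosome 2, RefSeq, GRCr8, 5′ to 3′ along the gene, matches in capitals).
Sprr1a, chr2:180752626-180752775: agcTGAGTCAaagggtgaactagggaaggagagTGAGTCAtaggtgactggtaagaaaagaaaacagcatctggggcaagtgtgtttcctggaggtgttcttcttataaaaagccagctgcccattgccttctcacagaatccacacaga
Loricrin, chr2:180256573-180256722: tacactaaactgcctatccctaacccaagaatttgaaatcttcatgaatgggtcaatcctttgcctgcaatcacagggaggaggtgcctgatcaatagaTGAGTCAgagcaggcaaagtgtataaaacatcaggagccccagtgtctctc
Sprr1a holds the motif at 147 and 117 bases before the start and Loricrin at 51. Sprr1a differed by -5.67 and Loricrin by -5.82, opposite in sign to Mmp13 and Mmp3, so the letters were found in promoters of genes called in either direction.

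Regulators of epithelium were lower in 8 of 17 cases and higher in none, with a median of -1.21, and lower in 5 and higher in 1 as deposited. Grhl1 and Grhl3, grainyhead factors that direct barrier formation, had an OMCT intensity of 89.999 against 377 in PCT, a relative difference of -2.59 and intensities of 95.0 in OMCT and 381 in PCT (relative difference -2.53). Ehf, a factor of surface epithelium, had an intensity of 282 in OMCT against 966 in PCT, a relative difference of -2.37. Foxe1, a forkhead factor, differed by -2.10. Klf5 and Klf4, which act in dividing and in maturing layers, differed by -1.65 and -1.39. Sox2 and Tfap2c were within the rule, at -0.34 and -0.18. Alox12, a lipoxygenase of epithelium and platelets, had an intensity of 53.9 in OMCT, 1197 in PCT and 524 in PICT, which gave a relative difference of -4.89. Among protease inhibitors, 3 of 20 were higher and 6 lower, with a median of -0.69, but 6 higher and 4 lower as deposited. Serpina12 (vaspin), a serpin also made by keratinocytes, had intensities of 6.04 in OMCT, 635 in PCT and 1474 in PICT (relative difference -6.08). Serpinb12, an epithelial serpin, had an intensity of 20.6 in OMCT, 118 in PCT and 721 in PICT, which gave a relative difference of -2.74, and Serpinf1, an inhibitor of vessel growth made by fibroblasts, was higher, with an OMCT intensity of 1175 against 223 in PCT, a relative difference of 1.73, as was Serpinh1, a collagen chaperone of the serpin family, at 1.498. Of 14 antimicrobial proteins 3 were higher and 3 lower, with a median of -0.47. Defb4, a beta-defensin of epithelium, had an intensity of 4.32 in OMCT, 789.8 in PCT and 1318 in PICT, which gave a relative difference of -6.58, an OMCT value close to the negative controls. Slpi, a secretory inhibitor, had intensities of 347 in OMCT, 733 in PCT and 3124 in PICT (relative difference -1.68), and Rnase4, a secreted ribonuclease, had an OMCT intensity of 2079.6 against 363 in PCT, a relative difference of 1.87.

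**Figure D4:**
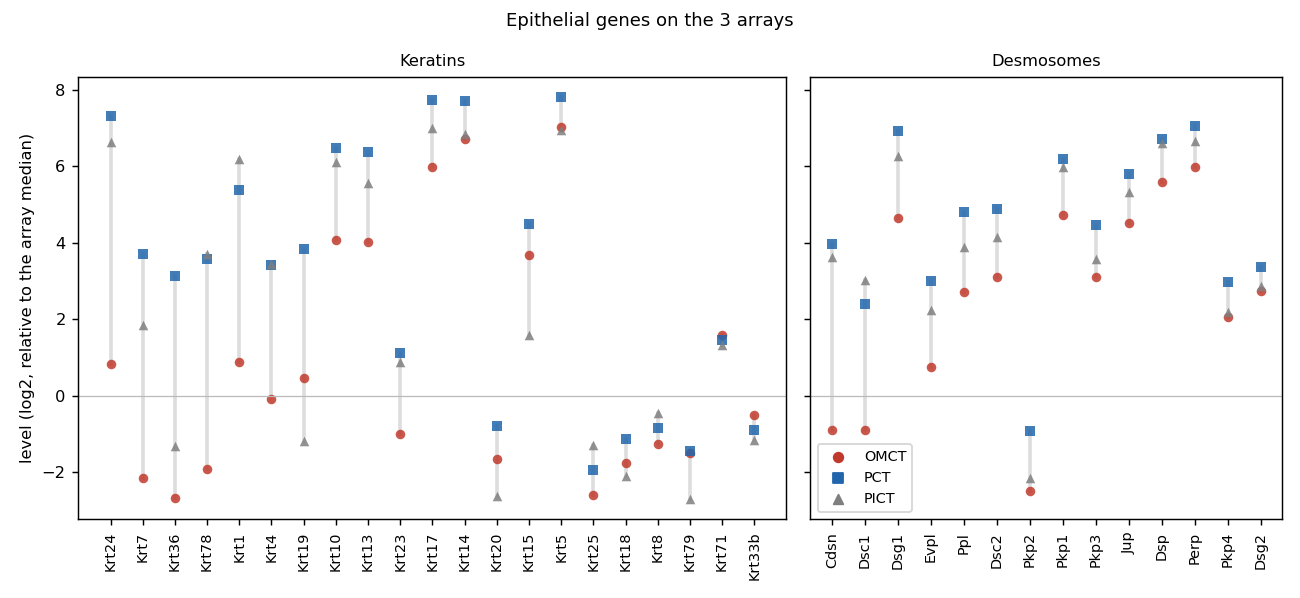
Log2 levels relative to each array's median are plotted for 21 keratins and 14 desmosome genes in OMCT (red circles), PCT (blue squares) and PICT (grey triangles), ordered within each panel by the difference OMCT minus PCT. Krt24, Krt7 and Krt36 show wide gaps between OMCT and PCT, while Krt5 and Krt14 differ by -0.78 and -0.99 near the top of the scale.

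A smaller set of genes was bright by the natural tooth and lower in both tissues that had lost it. Krt19, a keratin of junctional and simple epithelium, had intensities of 82.6 in OMCT, 603 in PCT and 20.3 in PICT (relative difference -3.37). Krt36, a hard keratin, had an intensity of 1.80 in OMCT, 365 in PCT and 17.5 in PICT, which gave a relative difference of -5.79, and its OMCT value is below the negative control, which bounds the difference at -5.56. Car3, a carbonic anhydrase of muscle and fat, had intensities of 60.5 in OMCT, 1575 in PCT and 37.8 in PICT (relative difference -5.14). Ada, adenosine deaminase, had an intensity of 70.2 in OMCT, 2458 in PCT and 279 in PICT, which gave a relative difference of -5.59. These genes thus separated PCT from both other arrays, although Ada remained well above the array median in PICT. Krt7, another keratin of simple epithelium, was intermediate at the implant, with intensities of 6.25 in OMCT, 549.6 in PCT and 226 in PICT (relative difference -5.86), and Krt8 and Krt18, the remaining keratins of simple epithelium, were dim on all arrays. Summed over 20 skeletal muscle markers, intensity was 3954 in OMCT and 4075 in PCT, most of it from Myh1, with an OMCT intensity of 1620.4 against 2681 in PCT, a relative difference of -1.35, and Tpm2, with intensities of 2034 in OMCT and 1173 in PCT (relative difference 0.17), while Acta1 and Ckm were dim, at 9.86 and 23.0 in PCT. Summed over 12 fat cell markers it was 1053 in OMCT and 246 in PCT, of which Lpl alone gave 791 and 103. Adipoq stood at 5.91 in PCT. The part of muscle and fat cells in the Car3 value was not tested.

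Bone, nerve and blood genes differed as well. Bglap (osteocalcin), made by mature osteoblasts, had an intensity of 10.1 in OMCT, 434 in PCT and 266 in PICT, which gave a relative difference of -5.19, and Dmp1, a matrix protein of osteocytes and dentine, had intensities of 40.0 in OMCT, 118 in PCT and 36.5 in PICT (relative difference -2.01). In the same list Ibsp (bone sialoprotein) was higher at 1.44 and Alpl, the mineralisation phosphatase, at 1.17, as was Pth1r, the parathyroid hormone receptor, at 1.32, so that 4 of 14 members were higher and 2 lower, with a median of -0.16. Spp1 (osteopontin), which macrophages also make, had an intensity of 1035 in OMCT, 58.5 in PCT and 3839.8 in PICT, which gave a relative difference of 3.34. Tooth-forming genes such as Ambn, Amelx and Dspp were dim on all arrays. Of 16 nerve and Schwann cell markers 4 were lower and none higher, with a median of -0.72: Mbp, a myelin protein, had intensities of 123 in OMCT, 374 in PCT and 134 in PICT (relative difference -2.16), and Nefl, a neurofilament of axons, had an intensity of 11.2 in OMCT, 35.9 in PCT and 0.924 in PICT, which gave a relative difference of -1.79. The sodium channel Scn7a and the receptor Erbb3 differed by -1.38 and -1.26, and as deposited 2 of the 16 were lower. Of 5 red blood cell markers 3 were lower and none higher, and Hbb, a globin chain, had intensities of 129 in OMCT, 765 in PCT and 415 in PICT (relative difference -3.12). Alas2, which starts haem synthesis in red cells, and Ahsp, a globin chaperone, differed by -2.43 and -1.14. Of the periodontal ligament markers, 8 of 12 were higher at the healed site and 1 was lower, with a median of 1.34; they included Tnc, Tnn and Aspn, given above, and Postn (periostin) at 1.47. The tendon factors Scx and Tnmd, dim on both arrays, differed by -0.54 and -0.08.

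Of 22 prostaglandin and leukotriene genes 7 were higher and 2 lower, with a median of -0.15. Ptgs2, the inducible enzyme of prostaglandin synthesis, had an intensity of 188 in OMCT, 11.3 in PCT and 253 in PICT, which gave a relative difference of 2.68. Ptgs1, the constitutive form, had intensities of 592 in OMCT, 85.001 in PCT and 245 in PICT (relative difference 2.06). Pla2g2a, a secreted phospholipase that frees fatty acids, had an intensity of 2099.7 in OMCT, 301 in PCT and 507 in PICT, which gave a relative difference of 2.15. These 3 enzymes act at the start of the pathway. Ptges, which makes prostaglandin E, was within the rule at -0.51. Alox5 and Alox5ap, which start leukotriene synthesis, were higher by 1.704 and 1.69, and Hpgd, which degrades prostaglandins, was lower at -1.38. Ptgfr, a prostaglandin receptor, reached 2.04 with probe sets from -0.01 to 2.04.

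Of the metabolic groups, lipid metabolism had 7 of 34 members higher and 7 lower, with a median of -0.47. Lpl, which frees fatty acids from blood lipoproteins and is made by fat cells and macrophages, had an intensity of 791 in OMCT against 103 in PCT, a relative difference of 2.21, and Pltp, a phospholipid carrier, differed by 1.87. Enzymes of lipid synthesis were among the lower genes, with Dgat2 at -2.14, Elovl6 at -1.89 and Fa2h at -2.41. Of 37 detoxifying enzymes 4 were higher and 5 lower, with a median of -0.41, but 7 higher and 4 lower as deposited. Gsta3l1, a glutathione transferase, had an intensity of 1276 in OMCT, 10.4 in PCT and 165 in PICT, which gave a relative difference of 5.46, and Aldh3b1, an aldehyde dehydrogenase, was also higher at 1.08, while Cyp4b1, a cytochrome, was lower at -2.01. Glycolysis and hypoxia genes had 1 of 28 higher, the glucose carrier Slc2a3 at 1.09, and 2 lower, Vegfa and Pdk1, the latter at -1.004 on the limit of the rule, but 5 higher and none lower as deposited. Among 33 genes of mitochondrial respiration none was called; they ran from -0.70 (Ndufa4) to 0.32 (Ppargc1a), with a median of -0.24.

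Cell division, interferon response, immediate early and clock lists are given next, beside 5.66% higher and 4.81% lower over all genes. Of 38 cell cycle genes 3 were higher and 1 lower, with a median of 0.02, but 9 higher and 1 lower as deposited. Mki67, the common marker of dividing cells, had intensities of 555 in OMCT, 445 in PCT and 591 in PICT (relative difference -0.31), and Top2a, which untangles DNA before division, had an intensity of 476 in OMCT against 521 in PCT, a relative difference of -0.75. The 3 higher genes were Mcm5 and Mcm6, which open DNA for copying, at 1.25 and 1.005, and Ccnd2, a cyclin, at 1.04. Cdkn2b, an inhibitor of the cycle, was lower, with intensities of 68.1 in OMCT, 266 in PCT and 228 in PICT (relative difference -2.47). Interferon response genes had none of 26 higher and 1 lower, Rsad2 at -1.096, with a median of 0.04, but 8 were higher in the deposited values. Mx1, a classical member, had an intensity of 40.0 in OMCT, 27.8 in PCT and 489 in PICT, which gave a relative difference of -0.21, so that its bright value was at the implant. Immediate early genes had 2 of 25 higher and 3 lower, with a median of -0.11, but 6 higher and none lower as deposited. Dusp2 and Nr4a3 were higher at 1.91 and 1.36, and Egr1 and Gadd45a were lower at -1.28 and -1.27, while Fos was within the rule at -0.20. Clock genes had 1 of 16 higher, Nr1d2 at 1.07, and 3 lower, Bhlhe41 at -1.66, Cry1 at -1.33 and Bhlhe40 at -1.06, but 4 higher and 1 lower as deposited. The hours of harvest were not given in the sources used here.

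Genes for axon guidance, many of which also steer vessels and immune cells, had 4 of 34 higher and 4 lower, with a median of -0.14, and 11 higher and 1 lower as deposited. Sema3a, which repels axons, had an intensity of 281 in OMCT against 55.8 in PCT, a relative difference of 1.54, and Nrp2, a receptor for such signals that lymphatic endothelium also bears, had an OMCT intensity of 1349 against 338 in PCT, a relative difference of 1.35. Epha2, a receptor of epithelium, had intensities of 86.1 in OMCT and 230.4 in PCT (relative difference -1.96). The related receptor Ephb6, the plexin Plxnb1 and the ligand Sema3b were also lower, at -1.44, -1.23 and -1.37.

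**Figure D5:**
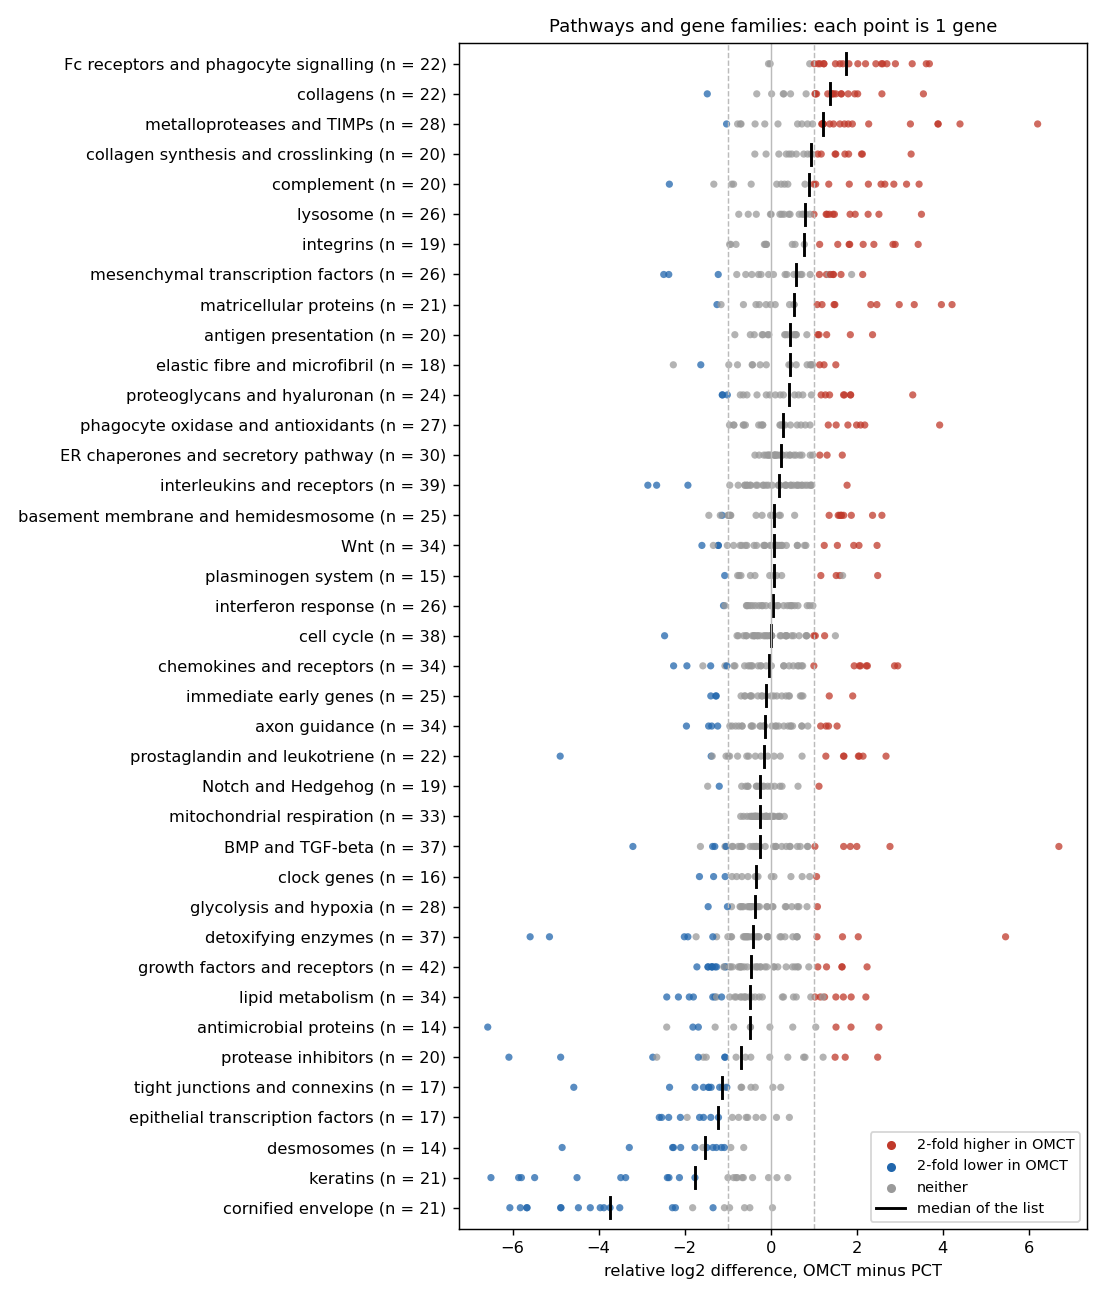
Each point is 1 gene, placed by its relative log2 difference, OMCT minus PCT, in 39 pathway and family lists ordered by their medians (black bars); red points were 2-fold higher in OMCT, blue points 2-fold lower and grey points neither. Phagocyte signalling has a median of 1.75, collagens 1.38 and cornified envelope genes -3.73, and Grem1 is the red point at 6.70.

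Several of the genes with the most extreme differences belong to none of these lists. Hsd11b1, which turns inactive cortisone into active glucocorticoid, had an intensity of 1038 in OMCT, 39.1 in PCT and 404 in PICT, which gave a relative difference of 3.83. Dio2, which activates thyroid hormone inside cells, had intensities of 3278 in OMCT, 62.5 in PCT and 209.6 in PICT (relative difference 4.91). Both enzymes make a hormone active within the tissue, and both were higher at the healed site than on the other arrays. Pilra, an inhibitory receptor of myeloid cells, had an intensity of 421 in OMCT, 13.7 in PCT and 349 in PICT, which gave a relative difference of 3.65, and Fibin, a secreted protein of mesenchyme, had intensities of 788 in OMCT, 32.9 in PCT and 281 in PICT (relative difference 3.64). At the other end, Kprp, a keratinocyte protein, had an OMCT intensity of 0.991 against 291 in PCT, a relative difference of -5.59, and its OMCT value below the negative control bounds the difference at -5.24. Mal2, a protein of membrane traffic in epithelium, had intensities of 27.6 in OMCT and 950.1 in PCT (relative difference -5.35). LOC102549828 and C20h6orf15, genes whose roles are not described here, had relative differences of -6.64 and -5.81.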

How the data were processed

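RNA from 3 laser-dissected tissues of the rat upper molar region was measured on 1 array each. Per the labels' protocols, RNeasy columns gave total RNA, and the GeneChip 3′IVT Express kit amplified it from the poly(A) end and added biotin. The authors deposited linear intensities for 31099 probe sets. Their probe summary and any scaling were not given in the sources used here. Platform annotation gave exactly 1 gene symbol for 20832 probe sets, several for 436 and none for 9831. Of those with 1, 20826 were used after control probe sets were left out, and each gene was read from its brightest probe set by mean log2 over the 3 arrays. The pseudocount 8.56, the 20th percentile of all intensities, was added before log2, and values were centred on each array's median over all probe sets (Python 3.11.15, numpy 2.4.6, pandas 2.3.3). The calling steps were run on simulated data, a scaled copy of the PCT array with added noise. Differences of 4-fold or more were planted in bright genes. None was planted near the 2-fold limit, so the run does not measure how calls behave there. Columns of other samples numbered 0.

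Named genes were the 15 largest and 15 smallest differences among called genes whose brighter array lay at or above the 75th percentile of its probe sets, up to 5 called members of each of 63 lists with the largest differences, called members opposite to most of a list, and defining genes named with their values known. All members and lists were chosen with earlier results of these data known. Samples were grouped by the labels' titles. With 1 array for each tissue, no test was run, and the number of arrays limits the precision. For 16 higher genes PCT, and for 19 lower genes OMCT, lay at or below the brightest of 3 negative control probe sets (trp), at 5.71 in PCT and 3.60 in OMCT. The spread between probe sets of a gene had an SD of 0.49. Alternatives varied the centring, normalization, pseudocount, level filter, choice of probe set and threshold. Promoters were taken from a RefSeq table (GRCr8), matched by symbol.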

Additional observations from a re-analysis of the deposited data

How the results depend on the processing

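The count of higher genes was 805 and of lower genes 684. Without centring, as deposited, they were 2501 and 298, at 4-fold 189 and 190, and centred on the 18 hybridisation control probe sets, an alternative chosen after seeing the data, 1409 and 441. The differences of those control probe sets had a median of 0.26 as deposited, and the array medians differed by 0.62. The centring itself used each array's median control level. It moved the basal keratinocyte median from -0.35 as deposited to -0.65. Lower genes also numbered 333 with the pseudocount at the median of all values, 1163 with no filter on level and 434 with the brighter array at or above its 75th percentile. Under the other alternatives tried, which were scaling before the pseudocount, quantile normalization, centring within bins of mean level, a pseudocount of 1, the median of all probe sets, and probe sets ending in _x_at or _s_at left out, both counts stayed within 1.5 times the main ones. None of the 226 named genes chosen by the rule changed sign under the alternatives computed for it. Their differences were at least 1 in size, and leaving out the centring moves each by 0.62, so that alternative could not change a sign. Centring on the hybridisation controls moves each by a smaller constant and could not change a sign either. For genes with 1 probe set, the median of all probe sets changes nothing. Genes that were not called, with relative differences less than 0.62 below 0, turn positive without centring. List medians under 1 in size can change sign with the scaling: growth factors went from -0.46 to 0.16 as deposited and mitochondrial respiration from -0.24 to 0.38. Without centring 15 of 20 collagen synthesis and crosslinking genes and 18 of 26 lysosomal genes were higher. No paired analysis was possible because each tissue has 1 array and the labels carry no replicate numbers; for the same reason no array could be left out. Genes near the negative controls have inexact differences.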

Other observations

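Several genes that handle retinoic acid, a vitamin A signal that restrains keratinisation in oral epithelium, were called; they were picked after their values were seen. Aldh1a2, which makes retinoic acid, had an intensity of 323 in OMCT, 43.9 in PCT and 53.2 in PICT, which gave a relative difference of 2.04. Cyp26b1, which breaks it down, had intensities of 838 in OMCT, 164 in PCT and 283 in PICT (relative difference 1.67). Both enzymes were higher at the healed site than on the other arrays. Crabp2, which carries retinoic acid to the nucleus, had an intensity of 515 in OMCT, 1548 in PCT and 2205 in PICT, which gave a relative difference of -2.19, and Rbp2, a retinol carrier, had intensities of 68.5 in OMCT, 254 in PCT and 441 in PICT (relative difference -2.39). These carriers were lower in OMCT than on the other arrays, where epithelial markers were also brighter; the part of those markers was not tested.

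Other genes chosen after their values were seen showed a like order of arrays. Stc1, a secreted hormone of mineral balance, had an intensity of 1227 in OMCT, 64.8 in PCT and 68.8 in PICT, which gave a relative difference of 3.45, and Esm1, a proteoglycan of growing endothelium, had intensities of 377 in OMCT, 28.5 in PCT and 17.1 in PICT (relative difference 2.76). Ackr4, a scavenger receptor for lymphatic chemokines such as Ccl21, had an intensity of 659.9 in OMCT, 57.2 in PCT and 48.8 in PICT, which gave a relative difference of 2.72. In each of these 3 genes OMCT was bright and the tissue around tooth and implant was similar. Slc7a11, the cystine carrier of the glutathione pathway, had intensities of 194 in OMCT, 1333 in PCT and 401 in PICT (relative difference -3.35), and Cdo1, which oxidises cysteine, had an intensity of 43.1 in OMCT, 474 in PCT and 82.3 in PICT, which gave a relative difference of -3.85; both were highest by the tooth.

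Of 10216 probe sets without exactly 1 gene symbol, 294 (2.88%) were higher and 241 (2.36%) lower by the same rule, with differences from -8.42 to 5.93.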
